A study of Mus musculus with 26 samples.

Results

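Aquaporins are membrane channels that pass water and, in some members, glycerol and other small solutes. All probes whose gene symbol in the platform annotation begins with Aqp and a number were taken, which gave 9 of the 10500 probes on the array, 1 per gene: Aqp1, Aqp2, Aqp3, Aqp4, Aqp5, Aqp7, Aqp8, Aqp9 and Aqp11. They were followed across the lacrimal gland, 3 salivary glands (parotid, sublingual and submandibular) and the meibomian gland of male and female BALB/c mice, an inbred laboratory strain. No treatment or genetic change was recorded, and the age of the mice was not given in the sources used here. Each of the 26 arrays held RNA pooled from 10 glands of 5 animals, so that the spread between pools does not show the spread between animals. There were 3 pools per sex of the lacrimal, submandibular and meibomian glands (A, B and C) and 2 per sex of the parotid and sublingual glands (A and B). Whole glands were used, and in such RNA fewer cells of a type and less RNA per cell cannot be told apart.

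Fluid leaves an exocrine gland through the acinar cells, which move chloride into the lumen, with sodium and water following. Aqp5 sits in the luminal membrane of these cells in salivary and lacrimal glands and is the channel through which much of the water of saliva passes. Aqp1 is the channel of capillary endothelium and red blood cells. Aqp3, Aqp7 and Aqp9 also pass glycerol and are known from epidermis, fat and liver, where glycerol is exchanged. Aqp8 passes water and ammonia and is known from pancreatic acini, liver and colon. The meibomian gland differs from the others in kind: its cells fill with lipid and burst to release it, and the lacrimal and salivary glands secrete watery fluid.

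The values were scaled intensities, a linear measure of spot brightness that the deposited table holds with a median over all probes of 0.928 to 0.955 on every array. The comparisons used the 8191 probes that were at or above the 30th percentile of the array in all pools of 1 or more of the 10 sex and gland groups. That percentile lay between 0.281 and 0.561. Of the aquaporins, 5 passed (Aqp1, Aqp3, Aqp5, Aqp8 and Aqp9) and 4 did not (Aqp2, Aqp4, Aqp7 and Aqp11). A group that lay below the percentile on all its arrays is called dim, and only a bound can be given for it. The labels were checked against gland markers. Those highest in their own gland included Egf and Klk1b24 (submandibular), Spdef (sublingual), Sval2 (lacrimal) and Elovl3 and Elovl4 (meibomian), with geometric means of 54.8, 34.2, 17.8, 510.0, 102 and 126 in the gland named (the second highest gland had 15.2, 7.81, 7.79, 4.16, 0.577 and 0.346). Agr2, listed as a sublingual marker, was instead highest in the lacrimal gland (356, against 24.6 in the sublingual gland), and Car6, listed as a parotid marker, was also highest there (464, against 306 in the parotid gland). Smr2 of the submandibular list and Creb3l1 of the sublingual list were highest in the parotid gland, and Mc5r of the meibomian list in the lacrimal gland. Beyond gland and sex, the arrays were divided into a set of 10 (pool A of the parotid, sublingual and meibomian glands and pool B of the lacrimal and submandibular glands, both sexes) and a set of 16, named set 1 and set 2 here. The sets were read from the values (the sign of the leading component of the deviations from the group means, 39.1% of their variance), and the labels record no batch. Deviations within a group cancel, so this rule had to split every group between the sets.

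The 9 genes lie on 6 chromosomes in the RefSeq annotation of GRCm38.p6, and 2 pairs of them are neighbours. Aqp2 (chromosome 15, 99579056 to 99584545) ends 6.48 kb before Aqp5 (99591028 to 99594829) begins. On chromosome 4, Aqp7 (41033074 to 41048237) and Aqp3 (41092724 to 41098183) are 44.5 kb apart. In both pairs 1 gene was bright and its neighbour did not pass the filter in any gland. Aqp8 lies on chromosome 7 (123462294 to 123468003), as does Aqp11, Aqp1 on chromosome 6 and Aqp9 on chromosome 9.

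The 3 genes with the largest differences between glands have unlike sequence before their start sites, which is why these stretches are shown. Each is the 200 bases upstream of the annotated start, 5′ to 3′ on the gene's own strand, from RefSeq for GRCm38.p6 (Aqp8 at chr7:123462094-123462293 on the plus strand, Aqp5 at chr15:99590828-99591027 on the plus strand, Aqp3 at chr4:41098184-41098383 on the minus strand). Capitals mark every CG and, in Aqp3, a TATAAA box.
Aqp8: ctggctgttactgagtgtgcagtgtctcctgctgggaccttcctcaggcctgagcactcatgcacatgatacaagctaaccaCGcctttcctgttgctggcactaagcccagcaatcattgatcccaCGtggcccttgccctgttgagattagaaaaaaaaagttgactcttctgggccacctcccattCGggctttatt
Aqp5: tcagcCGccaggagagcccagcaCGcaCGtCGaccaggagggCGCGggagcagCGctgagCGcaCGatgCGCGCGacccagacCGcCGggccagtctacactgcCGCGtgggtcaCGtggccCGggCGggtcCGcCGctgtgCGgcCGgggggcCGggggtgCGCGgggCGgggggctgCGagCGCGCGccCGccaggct
Aqp3: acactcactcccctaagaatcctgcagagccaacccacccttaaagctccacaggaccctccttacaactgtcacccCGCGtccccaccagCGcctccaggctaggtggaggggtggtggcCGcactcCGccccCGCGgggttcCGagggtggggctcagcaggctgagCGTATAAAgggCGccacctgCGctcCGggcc
The Aqp8 stretch held 3 CG dinucleotides, the Aqp5 stretch 32 and the Aqp3 stretch 12. Among the same windows of 32851 annotated starts the median was 5, and 34.4%, 98.2% and 70.6% of the windows held fewer than the Aqp8, Aqp5 and Aqp3 stretches. TATAAA on either strand occurred in 9.96% of all windows and, of the 3 genes, in Aqp3 at position -29 from the start. GGGCGG on either strand occurred in 31.05% of all windows, in Aqp5 at -77 and -34 and in Aqp3 at -73, and these matches overlap CG dinucleotides already in capitals. A match is a description of letters and not of a bound factor.

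Aqp8 was the aquaporin with the largest difference between glands. In the lacrimal gland it had scaled intensities of 64.1, 30.3 and 70.3 in male pools A, B and C and of 45.1, 33.7 and 45.0 in female pools A, B and C. All 6 lay between the 95.6th and 97.4th percentile of their arrays. The other 20 arrays lay between 0.0668 and 0.792, so the lacrimal pools did not overlap with any other gland, as was true of 3.13% of all probes. The sublingual, submandibular and meibomian glands were dim on all their arrays (highest 0.120, 0.199 and 0.127). In the parotid gland male pool B had 0.792, the 1 array of 4 that reached the 30th percentile, while male pool A had 0.180 and female pools A and B had 0.317 and 0.174. Aqp8 exceeded the mean of the other 4 glands by 8.45 ± 0.26 on the log2 scale (SE, 6 lacrimal pools against 20), at least 140-fold, with a limma adjusted p of 4.87e-16. This difference was 8.06 within set 1 and 8.62 within set 2. With the pool letter as a block, which allows for same-letter male and female pools that deviate together, its SE was 0.41 and its adjusted p 2.16e-12 (limma). Against each gland in turn the fold was at least 127 (parotid), 138 (sublingual), 141 (submandibular) and 157 (meibomian). The parotid bound and the one against the other 4 glands took male parotid pool A (0.180) as read, since its group was not dim. Neither is therefore a strict lower bound. Of the 5 aquaporins that passed the filter, Aqp8 and Aqp9 were called higher in the lacrimal gland and Aqp3 was called lower, where 11.6% of all probes were higher and 8.58% lower. The Aqp3 call set mostly dim lacrimal readings (5 of 6 pools) against a mean that held the bright meibomian gland, and the lacrimal level of Aqp3 (0.271) was above the sublingual and submandibular ones (0.135 and 0.211). Over the 10 pairs of glands the 5 aquaporins gave 27 calls. Of the 5, 2 differed between lacrimal and parotid glands (26.1% of all probes did), 3 between lacrimal and sublingual (23.1%), 3 between lacrimal and submandibular (19.4%) and 3 between lacrimal and meibomian glands (40.8%). Between parotid and sublingual, submandibular and meibomian glands the counts were 2 (13.8%), 2 (16.8%) and 4 (40.1%). Sublingual and submandibular glands differed in 0 (10.4%), and each differed from the meibomian gland in 4 (34.8% and 36.6%). The lacrimal minus sublingual call of Aqp3 lay at the minimum difference (1.001) and was lost in 11 of 37 alternatives, and with the pool letter as a block both parotid minus sublingual calls were lost (Aqp8 and Aqp3, adjusted p 0.0763 and 0.0741, limma).

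**Figure D1:**
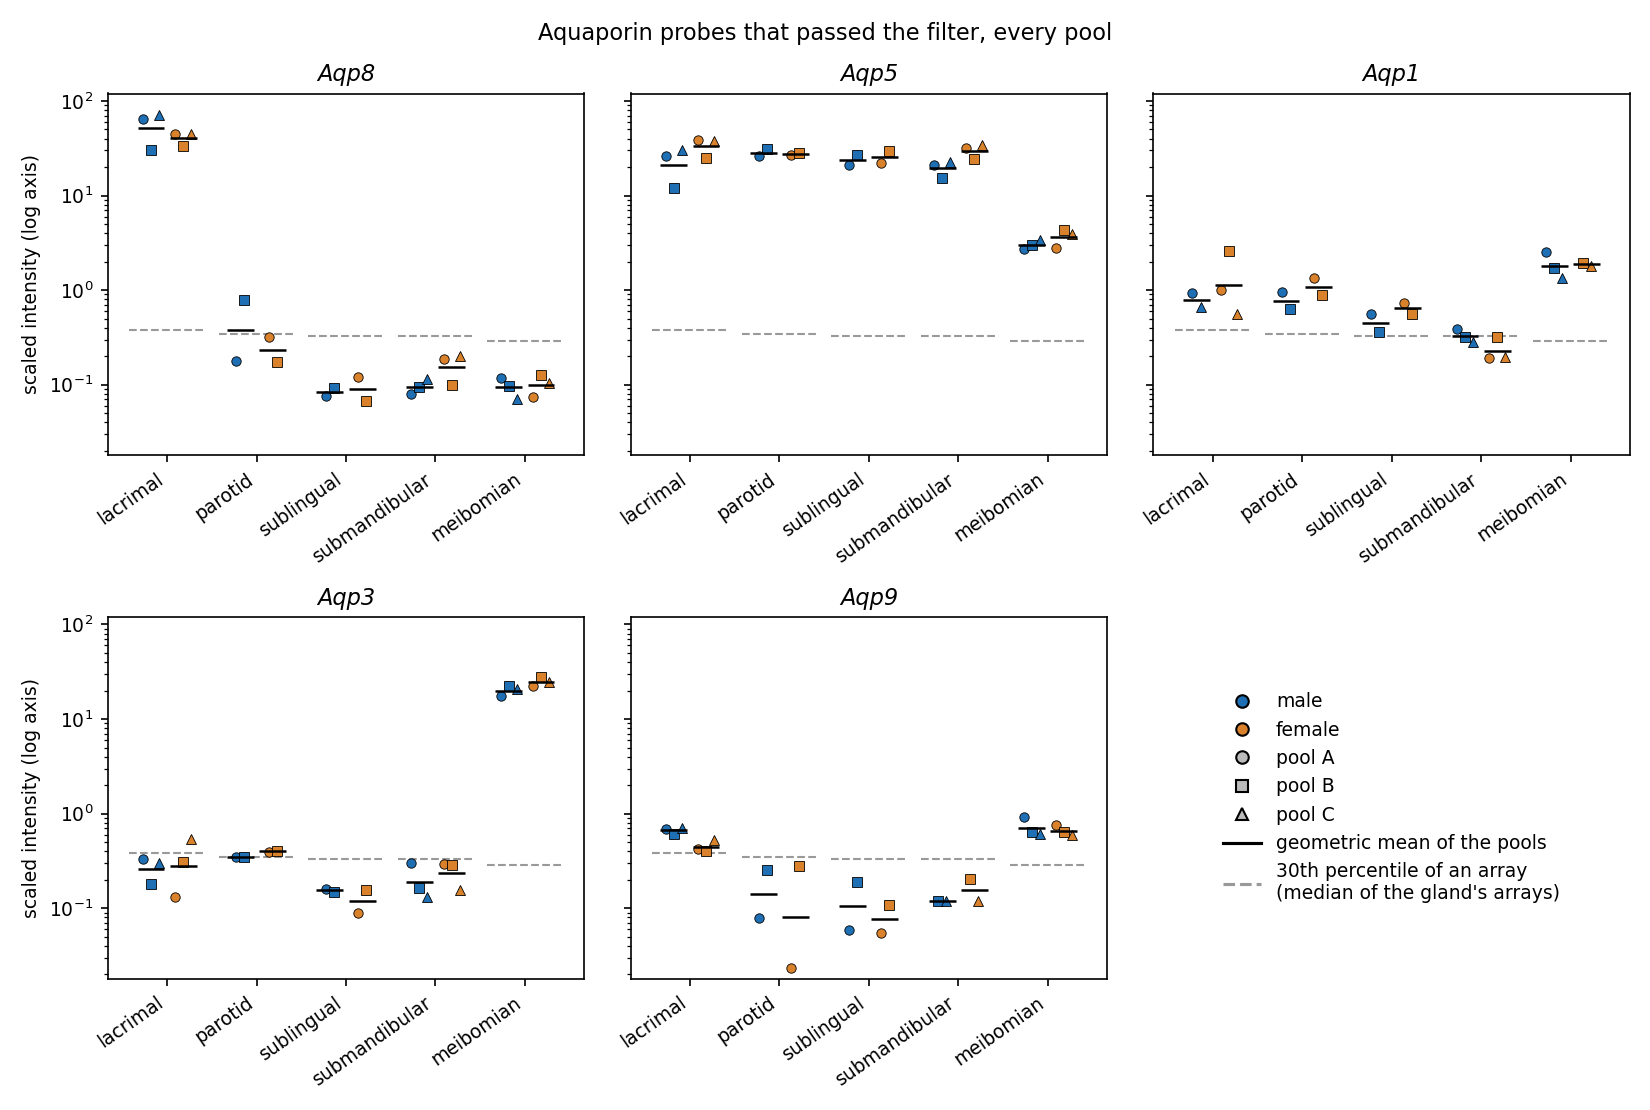
Scaled intensity (log axis) of the 5 aquaporin probes that passed the filter in every pool, by gland, with male pools left of female pools, shapes for the pool letter, black lines for geometric means and dashed lines for the 30th percentile of an array. Aqp8 stood at 30.3 to 70.3 in the lacrimal gland and Aqp3 at 17.4 to 27.5 in the meibomian gland, each far lower in the other glands, while Aqp5 lay lowest in the meibomian gland (2.69 to 4.32).

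The lacrimal marker genes were also highest in the lacrimal gland. Of 8 listed, 3 had a probe (Lpo, Ltf and Sval2), and all 3 reached the 30th percentile on every lacrimal array. Their summed intensity was 770 to 1237 in lacrimal pools, against 132 to 313 in parotid, 89.6 to 140 in sublingual, 117 to 188 in submandibular and 3.27 to 10.1 in meibomian pools. Of the 3, only Sval2 was as confined to the lacrimal gland as Aqp8 (geometric mean 510, and 4.16 or less elsewhere). Lpo had 454 in lacrimal and 92.8 to 197 in salivary glands. Ltf had 56.7 in lacrimal, 6.29 in sublingual and 6.32 in meibomian glands. The part of such markers in the result was not tested. The parotid reading of Aqp8 was called higher than the sublingual, submandibular and meibomian ones (adjusted p 0.00214, 0.00901 and 0.000557, limma), but the bounds on the fold were 1.08, 1.11 and 1.24. With the pool letter as a block the first and second of these calls were lost (adjusted p 0.0763 and 0.141), and the difference from the submandibular gland had an adjusted p of 0.103 without male parotid pool B and of 0.0639 without female pool A.

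Aqp5, the channel of the acinar cell membrane, was bright in the 4 glands that secrete fluid and was lower in the meibomian gland. In the lacrimal gland it had 25.9, 12.02 and 30.4 in male pools A, B and C and 38.5, 25.1 and 37.6 in female pools. Parotid pools A and B had 26.5 and 30.7 in males and 27.0 and 28.4 in females. Sublingual pools A and B had 20.9 and 26.6 in males and 22.3 and 29.8 in females. The 3 salivary and the lacrimal ranges overlapped one another. Submandibular pools A, B and C had 20.9, 15.5 and 22.6 in males and 31.6, 24.5 and 34.2 in females. Meibomian pools had 2.69, 3.01 and 3.36 in males and 2.78, 4.32 and 3.96 in females, all below the lowest pool of any other gland, as were 9.86% of all probes.

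The geometric mean of Aqp5 was 28.1 in parotid (SD 0.096 on the log2 scale, n = 4 pools), 26.5 in lacrimal (SD 0.62, n = 6), 24.6 in sublingual (SD 0.23, n = 4), 24.1 in submandibular (SD 0.42, n = 6) and 3.30 in meibomian glands (SD 0.28, n = 6). None of the 6 pairs among the first 4 glands passed the test. The widest of these differences, parotid minus submandibular, was 0.22 on the log2 scale with a 95% interval of -0.27 to 0.71, and the interval of lacrimal minus sublingual ran from -0.39 to 0.59. With the pool letter as a block these intervals were -0.35 to 0.79 and -0.47 to 0.67. The meibomian gland was lower than the mean of the other 4 (log2 difference -2.97 ± 0.17, SE, 7.81-fold lower, limma adjusted p 5.38e-12), with -2.94 in set 1 and -3.01 in set 2. With the block the SE of this meibomian difference was 0.20 and its adjusted p 1.4e-10 (limma). The meibomian pools still stood between the 70.5th and 77.5th percentile of their arrays and were not dim. In the meibomian gland 2 aquaporins were called lower (Aqp5 and Aqp8) and 3 were called higher (Aqp1, Aqp3 and Aqp9), where 20.9% of all probes were lower and 17% were higher. The Aqp8 call set dim readings against a mean that held the bright lacrimal gland, and the meibomian gland did not differ by the test from the sublingual or submandibular gland in Aqp8 (adjusted p 0.731 and 0.381, limma). The acinar markers with a probe in the parotid list (Amy1 and Car6, 2 of 8 listed) moved with Aqp5, with sums of 2.62 to 3.78 in meibomian pools and 306 to 1064 in pools of the other 4 glands, and their part in the result was not tested.

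Aqp1, the channel of small vessels and red cells, had intermediate levels that graded across the glands. Meibomian pools had 2.54, 1.70 and 1.34 in males A, B and C and 1.94 and 1.80 in females B and C. Lacrimal pools had 0.925 and 0.665 in males A and C and 1.01, 2.57 and 0.565 in females A, B and C. The spots of male lacrimal B and female meibomian A held the code for a missing value and were left out of the fit. Parotid pools ran from 0.635 to 1.35 and sublingual pools from 0.365 to 0.735. Submandibular pools had 0.384, 0.319 and 0.281 in males and 0.193, 0.317 and 0.196 in females, of which only male A reached the 30th percentile. The lacrimal pools had the widest spread (SD 0.85 on the log2 scale, n = 5), set by female pool B, without which the lacrimal gland was called lower than the meibomian gland (-1.25, limma adjusted p 0.000537).

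With both sexes weighted equally, the order of Aqp1 was meibomian (1.83), lacrimal (0.944), parotid (0.920), sublingual (0.540) and submandibular (0.273). Neighbours in this order did not pass the test together with the minimum log2 difference of 1, while submandibular and meibomian glands at the ends differed (submandibular minus meibomian -2.75 ± 0.31, at least 5.55-fold lower, limma adjusted p 5.1e-07). Against the mean of the other 4 glands, the meibomian gland was 1.62 ± 0.26 higher (at least 2.92-fold, adjusted p 2.54e-05) and the submandibular gland was lower (log2 difference -1.82 ± 0.24, at least 2.91-fold, adjusted p 1.13e-05). Within set 2 these were 1.73 and -1.69, and set 1 alone gave no value because of the missing spots. With the pool letter as a block they were 1.65 ± 0.31 and -1.88 ± 0.30 (limma adjusted p 0.000181 and 0.000166). Submandibular minus meibomian was then -2.82 ± 0.38 (adjusted p 6.55e-06). Where the missing code was read as the floor value instead, neither was called (0.77, adjusted p 0.377, and -1.34, adjusted p 0.207). Aqp1, Aqp3 and Aqp8 were the aquaporins called lower in the submandibular gland, where 6.61% of all probes were lower. The Aqp3 and Aqp8 calls there set dim readings against a mean that held the 1 bright gland of each.

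Endothelial markers were summed in the same pools. Of 13 listed, 11 had a probe, and their summed intensity was 8.32 to 9.16 in meibomian pools, 4.92 to 9.17 in lacrimal pools, 11.96 to 14.5 in parotid pools, 8.36 to 12.2 in sublingual pools and 8.36 to 9.92 in submandibular pools. Cdh5, a defining endothelial marker, was near the floor throughout (geometric means 0.0882 to 0.181). Red blood cell markers (4 of 7 with a probe) summed to 18.6 to 115 in meibomian and 80.8 to 127 in submandibular pools. The part of these cells in the Aqp1 differences was not tested.

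Aqp3, which carries glycerol and water in epidermis and other surface epithelia, was the meibomian counterpart of Aqp8 in its range. Meibomian pools A, B and C had 17.4, 22.1 and 20.8 in males and 22.5, 27.5 and 24.6 in females. The 20 pools of the other glands had 0.0886 to 0.535, so the meibomian pools lay above all others, as 9.91% of all probes did. Parotid pools A and B lay near the 30th percentile, with 0.345 and 0.347 in males and 0.392 and 0.407 in females, and 3 of these 4 reached it. Lacrimal pools ran from 0.132 to 0.535, with female C as the 1 pool of 6 at the percentile, and sublingual and submandibular pools were all dim (highest 0.161 and 0.304). The meibomian gland exceeded the mean of the other 4 by 6.59 ± 0.23 (log2, SE, 6 pools against 20), at least 65.0-fold, with a limma adjusted p of 2.35e-15. The difference was 6.50 within set 1 and 6.61 within set 2. With the pool letter as a block its SE was 0.33 and its adjusted p 2.19e-12 (limma).

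Keratinocyte markers as a sum were highest in the meibomian gland, as Aqp3 was. Of 12 listed, 6 had a probe, and their summed intensity was 70.3 to 151 in meibomian pools, 22.1 to 33.2 in parotid pools, 3.75 to 6.47 in lacrimal pools, 4.90 to 6.43 in sublingual pools and 5.46 to 9.33 in submandibular pools. All 6 reached the 30th percentile on every meibomian array, but Lor, a protein of the cornified envelope, was lower there (geometric mean 0.948) than in the lacrimal gland (1.97). Krt6a was also lower there (19.7) than in the parotid gland (21.3). Among the meibomian pools of each sex, pool A had the highest keratinocyte sum (134 in males, 151 in females) and the lowest Aqp3 (17.4 and 22.5). Skeletal muscle markers (12 of 15 with a probe) had sums of 250 to 454 in meibomian pools and 2.35 to 28.1 in lacrimal, sublingual and submandibular pools. They did not follow Aqp3 in the parotid gland, where their sums of 68.1 to 332 overlapped the meibomian ones and Aqp3 was far lower (0.345 to 0.407). The part of these cells in the Aqp3 difference was not tested.

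Aqp9, a glycerol channel best known from liver, was a weak signal in lacrimal and meibomian glands. Meibomian pools A, B and C had 0.915, 0.643 and 0.614 in males and 0.762, 0.632 and 0.598 in females. Lacrimal pools had 0.693, 0.606 and 0.709 in males and 0.420, 0.398 and 0.521 in females. All 12 reached the 30th percentile, and Aqp9 passed the filter only through groups of these glands. They also stood above every salivary pool, and the share of all probes with this pattern was not counted. Parotid pools A and B had 0.0789 and 0.251 in males and -0.00298 and 0.279 in females, the negative value being raised to the floor of 0.0234 for the fit. Sublingual pools had 0.0549 to 0.187 and submandibular pools 0.118 to 0.203, with both pools A missing there. All 12 measured salivary pools were dim.

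The fitted differences of Aqp9 from the mean of the other 4 glands were 2.07 ± 0.37 for meibomian (at least 1.81-fold, limma adjusted p 7.26e-05) and 1.65 ± 0.37 for lacrimal glands (at least 1.36-fold, adjusted p 0.00115). With the pool letter as a block the SE of each was 0.42, with adjusted p 0.000411 and 0.00501 (limma). The meibomian and lacrimal glands did not differ by the test (lacrimal minus meibomian -0.33, 95% interval -1.28 to 0.61, adjusted p 0.53). The calls of Aqp9 as lower in the parotid gland (adjusted p 0.0254) and the sublingual gland (adjusted p 0.0108) set dim readings against that mean. The parotid call was lost without female parotid pool A (-0.39, adjusted p 0.436), the pool at the floor, and without male parotid pool A (-0.87, adjusted p 0.211), and it had an adjusted p of 0.0678 with the pool letter as a block. The sublingual call was lost without male pool A (adjusted p 0.124) or female pool A (adjusted p 0.0906). Of the aquaporins, Aqp9 was the 1 called lower in the parotid gland, where 8.13% of all probes were lower, and 3 (Aqp3, Aqp8 and Aqp9) were called lower in the sublingual gland, where 5.26% were. The sublingual calls of Aqp3 and Aqp8 likewise set dim readings against a mean that held 1 bright gland, and neither differed by the test between sublingual and submandibular glands (adjusted p 0.206 and 0.415, limma).

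The 4 aquaporins that did not pass the filter stayed low in every gland, so only their readings are given. Aqp2, the water channel that vasopressin controls in the kidney, reached the 30th percentile on none of 26 arrays (-0.0357 to 0.415). Aqp4, the channel of astrocyte end feet and of muscle fibres, reached it on 5 arrays. These were meibomian A (0.644 male, 0.674 female), male meibomian B (0.282), female meibomian C (0.283) and male lacrimal C (0.732). The other meibomian readings were 0.179 (male C) and 0.242 (female B), and the pools of the 3 salivary glands had 0.0834 to 0.275. In each sex meibomian pool A also had the highest summed skeletal muscle markers of the 3 meibomian pools (369 in male A and 454 in female A, against 268 and 275 in the other males and 298 and 250 in the other females), and 4 further lists of the 13 were also highest in pool A of both sexes, among them keratinocyte markers (134 in male A and 151 in female A) and red blood cell markers (115 in male A and 109.8 in female A). Pool A was also the 1 meibomian pool in set 1. Their part in the Aqp4 reading was not tested.

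Aqp7, the channel through which fat cells release glycerol, reached the percentile on 4 arrays. Parotid pool B had 0.604 in males and 0.697 in females, against 0.179 and 0.213 in parotid pool A, and male submandibular A and female submandibular C had 0.365 and 0.358. Meibomian pools were dim (0.0626 to 0.174). Adipocyte markers (7 of 11 with a probe) summed to 246 in male and 477 in female parotid pool B and to 221 and 162 in male and female parotid pool A, and their part was not tested. Aqp11, an intracellular member of the family, reached the percentile on 3 arrays, male lacrimal C (0.759), female parotid B (0.364) and male submandibular A (0.380), and otherwise lay between 0.0491 and 0.438. The male and female lacrimal C arrays had the highest 30th percentiles of the 26 arrays, and leaving both out lost the call of Aqp3 in lacrimal minus sublingual (0.72, limma adjusted p 0.0804) and gained that of Aqp1 (1.18, adjusted p 0.0136).

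**Figure D2:**
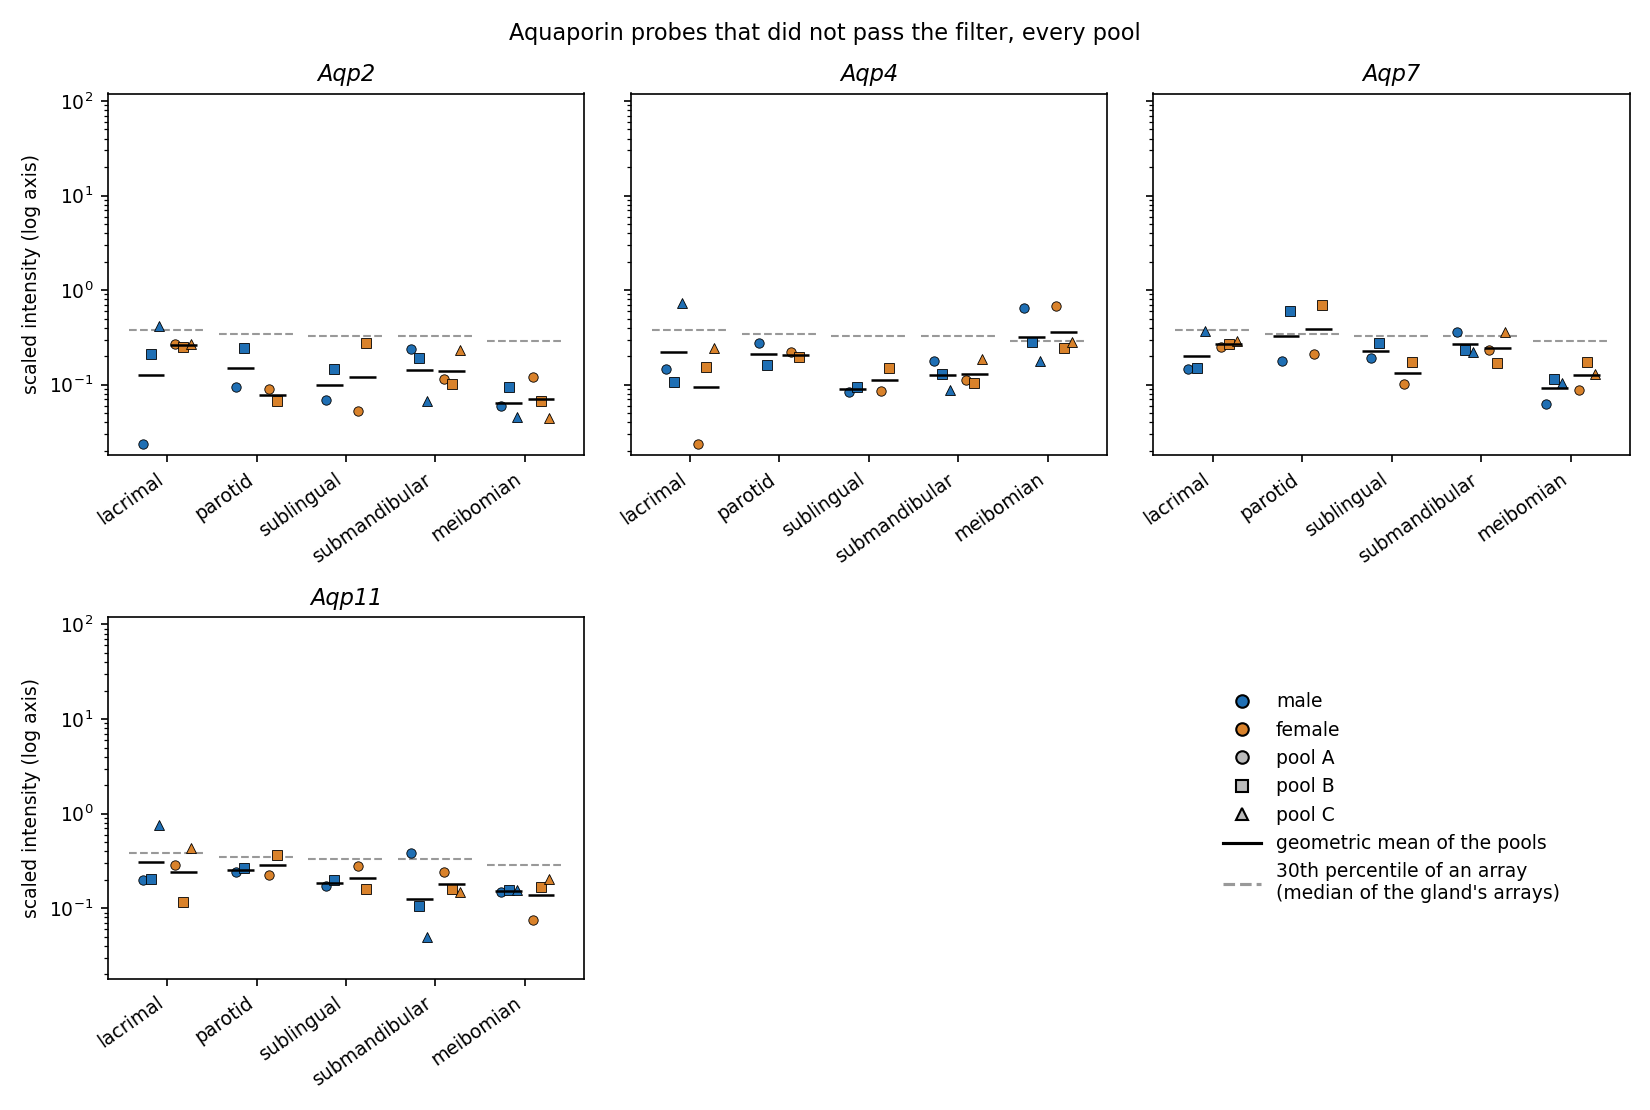
Scaled intensity (log axis) of the 4 aquaporin probes that did not pass the filter in every pool, by gland, with male pools left of female pools, black lines for geometric means and dashed lines for the median over the gland's arrays of the 30th percentile. The points reaching the percentile are single pools, such as Aqp4 in meibomian pool A (0.644 and 0.674) and Aqp7 in parotid pool B (0.604 and 0.697), and Aqp2 reached it on none of the 26 arrays.

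Between the sexes, Aqp5 was lower in males than in females of the same pool letter in 12 of 13 pairs. The exception was parotid pool B, with 30.7 in the male and 28.4 in the female pool. Of 7555 probes measured on all arrays, 0.662% were lower in males in at least 12 of 13 pairs. In the submandibular gland the 3 male pools (15.5 to 22.6) all lay below the 3 female pools (24.5 to 34.2), as 10.7% of all probes did there. The geometric means were 19.4 in males and 29.8 in females, a male minus female log2 difference of -0.62 ± 0.30 (SE, n = 3 pools each) that did not pass the limma test (adjusted p 0.498, unadjusted p 0.0507). In the lacrimal gland the means were 21.2 in males and 33.1 in females, a difference of -0.65 ± 0.30 (n = 3 each, adjusted p 0.307), and male pools A and C overlapped with female pool B.

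**Figure D3:**
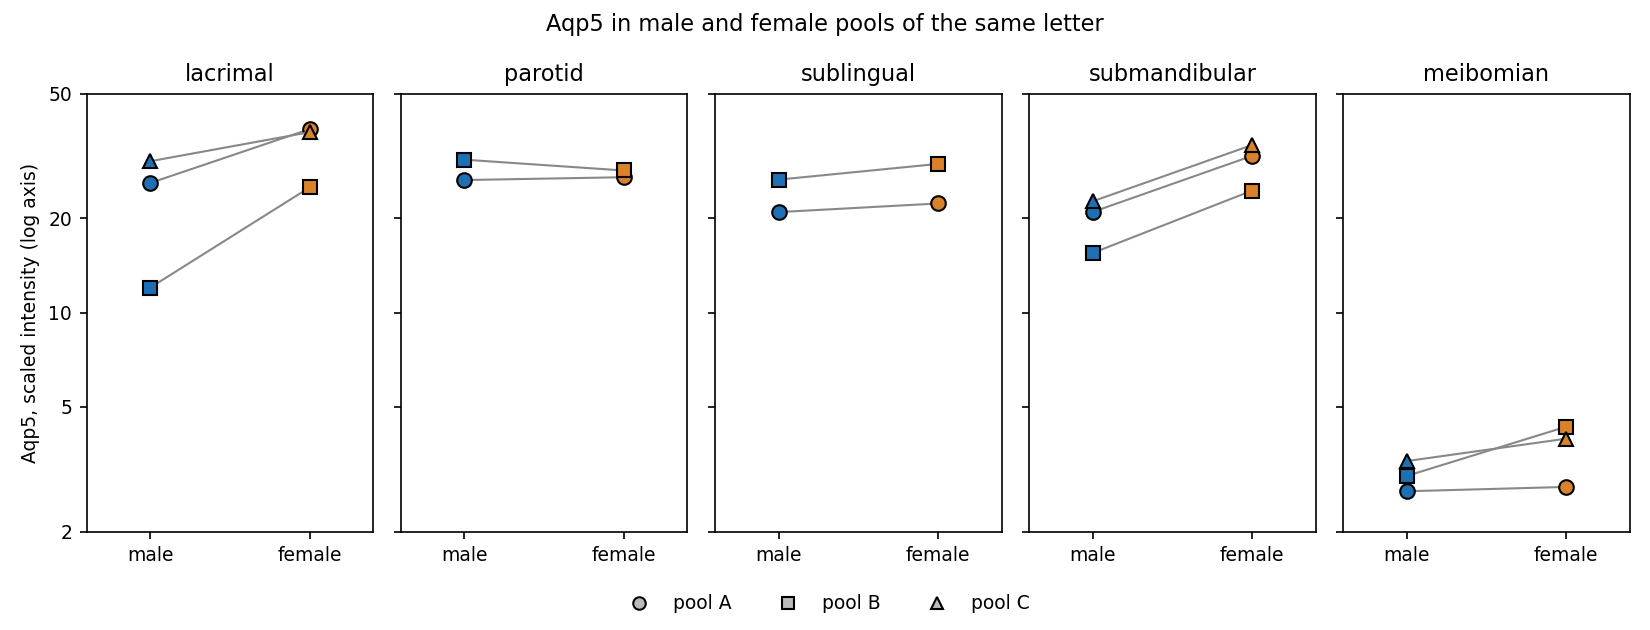
Scaled intensity of Aqp5 (log axis) in male and female pools, 1 panel per gland, with lines joining pools of the same letter. In 12 of 13 pairs the male pool was the lower one, and the steepest lines are those of lacrimal pool B (12.02 male, 25.1 female) and of the 3 submandibular pools.

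Male and female pools of the same letter deviated together from their group means, so the comparison within letters is also given. With the pool letter as a block, Aqp5 was called lower in males in the lacrimal gland (-0.65 ± 0.16, 1.57-fold, limma adjusted p 0.0183) and the submandibular gland (-0.62 ± 0.16, 1.53-fold, adjusted p 0.0356) and over the mean of the 5 glands (-0.32 ± 0.08, adjusted p 0.0381). That fit called 7.31%, 3.19% and 1.66% of all probes lower in males in these 3 comparisons. Without the block the mean over the 5 glands was -0.32 ± 0.15 (adjusted p 0.55). Set 1 gave differences of -1.06 (lacrimal) and -0.66 (submandibular, 1 pair each), and set 2 gave -0.44 and -0.60 (2 pairs each). The parotid, sublingual and meibomian differences were 0.04, -0.13 and -0.27, with 95% intervals of -0.72 to 0.80, -0.89 to 0.63 and -0.89 to 0.35, and were called in neither fit. Whether the sex difference of Aqp5 differed between glands was tested by a moderated F test, which it did not pass (F 0.85, adjusted p 1, and F 3.08, adjusted p 0.249 with the block).

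The summed submandibular markers (3 of 9 with a probe: Egf, Klk1b24 and Smr2, products of the granular ducts and acini) moved with sex in the same pools, with 397 to 544 in male and 13.1 to 30.6 in female submandibular pools. Skeletal muscle markers there were 22.9 to 28.1 in males and 3.28 to 5.21 in females. These 2 of the 13 marker lists were higher in males in all 3 pairs, and 5 were lower in all 3. Among the 5 were the lacrimal list (117 to 133 in males, 158 to 188 in females), the meibomian list (10.7 to 10.9 in males, 33.9 to 54.1 in females) and the sublingual list (15.1 to 20.2 in males, 33.8 to 45.99 in females), with the parotid and nerve lists besides. In the lacrimal gland 5 lists were lower in males in all 3 pairs, among them adipocyte markers (12.8 to 31.1 in males, 24.2 to 47.4 in females) and endothelial markers (4.92 to 8.78 in males, 8.02 to 9.17 in females). Another 2 were higher in males in all 3 lacrimal pairs. These were the sublingual list (290 to 469 in males, 289 to 387 in females) and the meibomian list (12.5 to 15.3 in males, 7.02 to 11.6 in females). The part of any of these in the Aqp5 difference was not tested.

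The other aquaporins showed no sex difference that passed the test in any gland, with or without the block. In the fit without the block the count was 0 of 5 for each gland and for their mean, where 5.43% (lacrimal), 0.0244% (parotid), 0.208% (sublingual), 2.61% (submandibular), 0.0366% (meibomian) and 1.28% (mean of the glands) of all probes were called. Of these comparisons, 1 had an unadjusted p under 0.05 in the lacrimal gland and 1 in the mean of the glands, both Aqp5 (0.0416 and 0.0377). Aqp8 in the lacrimal gland had geometric means of 51.5 in males and 40.9 in females (male minus female 0.33, 95% interval -0.60 to 1.27). Aqp9 in the lacrimal gland was higher in all 3 male pools (0.606 to 0.709) than in the 3 female pools (0.398 to 0.521), a pattern that 5.88% of all probes had, with a difference of 0.59 ± 0.64 and an adjusted p of 0.788. Aqp3 in the meibomian gland was lower in all 3 male pools (17.4 to 22.1) than in the 3 female pools (22.5 to 27.5), a pattern that 2.87% of all probes had, with a difference of -0.31 ± 0.40 and an adjusted p of 1. In the F test across glands 0 of the 5 aquaporins that passed the filter were called, against 2.66% of all probes. None of the 5 had an unadjusted p under 0.05 (smallest 0.357, Aqp8).

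Genes of fluid secretion (ion transporters, pumps, receptors and calcium handling), of duct sodium and bicarbonate transport and of glycerol handling were set beside the aquaporins. Of 68 genes in 6 lists, 44 had a probe and 42 probes passed the filter. In the meibomian gland 20 were lower (20.9% of all probes were) and 7 higher (17%) than the mean of the other 4, with a median log2 difference of -0.72 against -0.09 over all probes. In the lacrimal gland 14 were lower (8.58% of all probes were) and 5 higher (11.6%), with a median of 0.02 against 0.12 over all probes. No aquaporin was called higher in the parotid, sublingual or submandibular gland, where 8.95%, 5.9% and 5.68% of all probes were. Aqp5 passed the adjusted p there but not the minimum difference of 1 (0.90, 0.66 and 0.62, limma adjusted p 0.00128, 0.0197 and 0.00861), and quantile normalization called it in the parotid gland (1.01, adjusted p 1.58e-05). The same held for Aqp5 in the lacrimal gland (0.79, limma adjusted p 0.0007). Each of these comparisons used a mean that held the low meibomian gland, and lacrimal and salivary glands did not differ in Aqp5 by the test. Of the 42 list probes the parotid, sublingual and submandibular glands had 8, 9 and 11 higher and 2, 1 and 1 lower, with medians of 0.18, 0.25 and 0.30 against -0.13, -0.08 and -0.02 over all probes. The same shares of all probes stand behind the counts of each list given next.

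Of the 11 ion uptake and exit probes, 3 were lower and 2 higher in the lacrimal gland and 8 were lower and 1 higher in the meibomian gland. Slc12a2, the transporter that loads acinar cells with chloride, had geometric means of 3.22 in lacrimal, 45.1 in parotid, 44.4 in sublingual, 56.3 in submandibular and 6.43 in meibomian glands. It was thus lower in the lacrimal gland than the mean of the other 4 (log2 difference -3.18 ± 0.13, limma adjusted p 3.9e-14), a gland in which no difference of Aqp5 from a salivary gland passed the test. Of the 5 sodium pump probes, 3 were lower in the lacrimal gland, led by the modulator Fxyd2 (-4.56 ± 0.21, adjusted p 6.56e-13) and the beta subunit Atp1b1 (-4.20 ± 0.12, adjusted p 2.69e-16), and 2 were higher in each salivary gland. Of the 7 duct sodium and bicarbonate probes, 5 were lower in the lacrimal gland, among them the epithelial sodium channel subunits Scnn1a (-3.80 ± 0.19) and Scnn1b (at least 6.42-fold lower), and the secreted carbonic anhydrase Car6 was higher there (2.33 ± 0.23) and lower in the meibomian gland (-6.99 ± 0.23, adjusted p 1.47e-15).

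**Figure D4:**
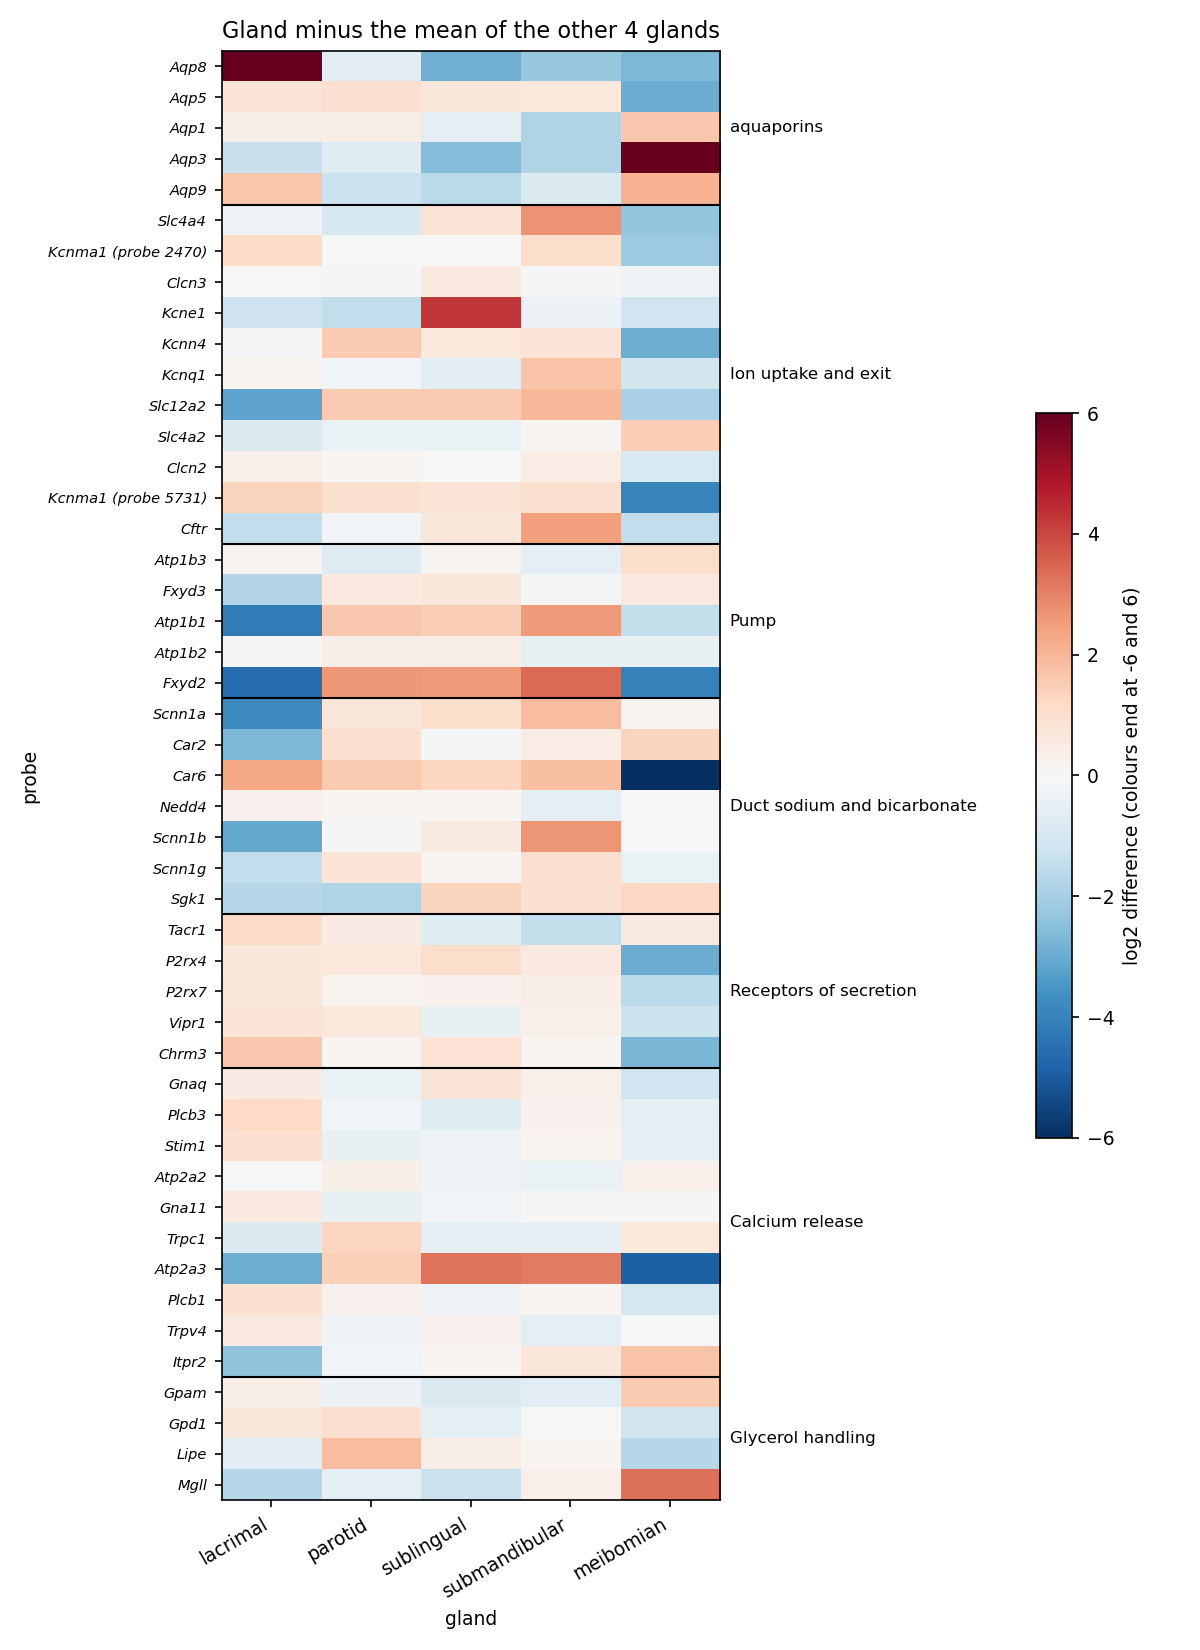
Log2 difference of each gland from the mean of the other 4 glands for the 5 aquaporin probes that passed the filter and the 42 probes of the 6 lists, with red for higher and blue for lower and rows grouped by list. The meibomian column is mostly blue below the aquaporins (20 probes called lower, 7 called higher), and the lacrimal column is blue for Slc12a2 (-3.18), Fxyd2 (-4.56) and Atp1b1 (-4.20) and dark red for Aqp8 (8.45). Fitted values are drawn, also where a gland was dim.

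Of the 5 receptor probes, 4 were lower in the meibomian gland, led by the ATP-gated channel P2rx4 (-2.99 ± 0.16, adjusted p 2.92e-12), and 2 were higher in the lacrimal gland, among them the muscarinic receptor Chrm3 (at least 1.68-fold, adjusted p 6.34e-05), a weak signal with geometric means of 0.448 in the lacrimal gland and 0.0402 to 0.296 elsewhere. Of the 10 calcium release probes, 3 were lower and 1 higher in the meibomian gland, and 2 were lower in the lacrimal gland, led by the calcium pump Atp2a3 (at least 8.65-fold lower, adjusted p 3.07e-08). Of the 4 glycerol handling probes, Mgll and Gpam were higher in the meibomian gland (3.29 ± 0.20 and 1.58 ± 0.19), as Aqp3 and Aqp9 were, and Lipe (at least 2.26-fold) and Gpd1 (-1.12 ± 0.22) were lower. Mgll frees glycerol from monoacylglycerol, and Gpam attaches the first fatty acid to glycerol phosphate. Between the sexes, the called members of the 6 lists were Slc4a4 (4.39 ± 0.48, male minus female), Sgk1 (1.72 ± 0.43), Mgll (1.62 ± 0.34) and Slc12a2 (-0.96 ± 0.22) in the submandibular gland, Fxyd3 in the lacrimal gland (-1.84 ± 0.35) and Slc4a4 over the mean of the glands (at least 2.31-fold higher). Slc12a2 was thus called lower in male submandibular glands, in the same pools in which Aqp5 read lower. These sex calls were 9.52% of list probes in the submandibular gland, 2.38% in the lacrimal gland and 2.38% over the mean of glands. The shares of all probes were 2.61%, 5.43% and 1.28%.

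For each aquaporin that was called, the 5 probes with 1 gene symbol whose 10 group means followed it most closely were listed by Pearson correlation (r, over the 10 groups of sex and gland, which share their arrays with the aquaporin). Aqp8 was followed by Csn1s2a, Gpr27, Ucn, C2cd2l and Htr1b (r 0.982 to 0.989), and 2.18% of probes had an r over 0.9. Among these, the casein Csn1s2a had geometric means of 132 in lacrimal and 0.679 to 0.919 in the other glands. Aqp5 was followed by Elapor1, Asns, Rragd, Gjb1 and Kcnma1 (r 0.987 to 0.995, 3.67% of probes over 0.9). Asns, asparagine synthetase, had 45.8 in lacrimal, 63.0 in parotid, 52.0 in sublingual, 48.6 in submandibular and 4.73 in meibomian glands. Kcnma1 is the large calcium-activated potassium channel of the ion lists. The Kcnma1 probe listed here was weak, with 0.692 in parotid, 0.692 in submandibular and 0.0435 in meibomian glands. Another, brighter Kcnma1 probe was not among these 5. It had 2.39 in parotid, 4.32 in submandibular and 0.713 in meibomian glands. Both probes were lowest in the meibomian gland. Aqp3 was followed by Tppp3, Dmkn, Klk7, Cnfn and Elovl3 (r 0.992 to 0.995, 5.3% of probes over 0.9), of which Dmkn, Klk7 and Cnfn are genes of the upper epidermis. Aqp1 was followed by Spns1, Mmp23, Retreg3, Ube2l6 and Abhd2 (r 0.929 to 0.946, 0.193% of probes over 0.9), none of them in the endothelial list. Aqp9 was followed by Esr2, 1110004F10Rik, Vps4b, Knstrn and Psmd8 (r 0.967 to 0.980, 1.55% of probes over 0.9).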

How the data were processed

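The authors' deposited table held 1 linear intensity per probe on each of 26 arrays (10500 probes), with the array platform, labelling and scaling not given in the sources used here. Of its 273000 cells, 2241 held exactly -1, which was read as missing and not used. The 1324 other negative cells and small positive values were raised to 0.0234, the 1st percentile of the positive values, and values were taken to log2 with no further normalization. No 2 arrays were identical (highest correlation 0.994). Probe symbols came from the platform annotation: 8983 probes had 1 symbol, 1 had several and 1516 had none, and 8975 matched RefSeq (GRCm38.p6).

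All arrays were fitted together with the moderated test of limma 3.58.1 (R 4.3.3) with 10 group means (16 residual and 4.15 prior degrees of freedom), checked on simulated data. The simulated arrays were independent, so the check does not cover same-letter arrays that deviate together. Tests set a gland against the averaged other 4 and against each single gland, with equal weight for the sexes, and males against females, with Benjamini-Hochberg adjustment over all probes within a comparison at 0.05. Gland calls also needed a log2 difference of at least 1. Levels are geometric means, and fold bounds set the bright group against the array's 30th percentile or the dim reading, whichever was higher. Only dim groups were raised in this way. Single readings below the percentile in other groups were used as read, and a bound that includes such a group is not strict. The number of pools limits the precision: the median SD between pools of a group was 0.242 (meibomian) to 0.504 (lacrimal) on the log2 scale. The labels call the pools separate sets of animals, so p-values measure the spread between pools.

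Males and females carry the same pool letters. In the glands with 3 pools, deviations of the 9 same-letter male and female arrays from their group means correlated at 0.441 to 0.816 over 7555 probes, each the best of its letter, so the letters were taken to pair the arrays. The fit without the block treats these arrays as independent. Values given without mention of the block come from that fit. Named genes are all aquaporin probes, the 5 probes that correlate best with each, and up to 4 called members per list and comparison, except the level of Slc12a2 in every gland, which was given after its values were seen. The aquaporins, the lists and the tests were chosen with earlier results of these data known. Alternatives in filter, normalization, floor, missing code, block, array weights, array set and arrays left out were run.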

Additional observations from a re-analysis of the deposited data

How the results depend on the processing

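Over 38 settings, 110 results gave 4038 values, of which 3968 kept their call, 33 lost a call, 36 gained one and 1 reversed. Of the 3968, 77 changed sign, all of results that were not called either way, and the rest kept their direction. The reversal was Aqp9 in parotid minus submandibular, -0.35 in all arrays and 1.15 in set 2 alone (adjusted p 0.0105), and both glands were dim. The count of aquaporin calls against the other 4 glands was 15, with 14 to 16 when each array was left out in turn, and 11 to 20 over the other settings. The count over pairs of glands was 27, with 26 to 29 when each array was left out and 21 to 30 over the other settings. The lowest counts, 11 and 21, came from the stricter filter at the 50th percentile, which Aqp9 did not pass. Its calls are absent from that setting and are not among the 33 lost. The count of sex differences within glands was 0 and was 2 with the replicate block (Aqp5 in lacrimal and submandibular glands, with the mean over glands also called), and it was 0 whichever array was left out. The F test count was 0, and 1 in set 2 alone (Aqp8, adjusted p 0.0292), and 0 whichever array was left out, and the cause was not tested. Reading the missing code as the floor lost all 6 calls of Aqp1. The block changed no other sex call. In gland comparisons it lost the Aqp3 calls of parotid over sublingual (adjusted p 0.0741) and lacrimal over sublingual (adjusted p 0.119), with the losses given in the report, and gained Aqp1 in parotid minus meibomian (-1.07, adjusted p 0.0432).

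The lacrimal difference of Aqp8 stayed between 7.89 and 8.64, the meibomian difference of Aqp3 between 6.52 and 6.67 and that of Aqp5 between -3.05 and -2.87 over all settings. Leaving out both lacrimal C arrays was chosen after seeing the data. Signal over background limits the dim readings: their order is not known, and folds against them are bounds. The settings for 1 gland's arrays alone apply to the sex comparisons only.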
